A study of Drosophila melanogaster with 23 samples.

Results

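The 476 regions described here had an ATAC-seq peak in every library made from all nuclei of the Drosophila blastoderm, and no peak in either library of tagged nuclei from at least 2 of 7 bands along the antero-posterior axis. They were chosen by presence or absence of the authors' peaks alone. On X, 2L, 2R, 3L, 3R and 4, peaks of the 22 lists sharing 1 bp or more were joined, which gave 25311 regions. Of these, 13926 were found in all 8 whole-embryo lists, and the 476 members were 3.42% of those and 1.88% of all. As both kinds of list served to choose them, the counts by band, number and combination below are a description with no test.

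ATAC-seq uses the transposase Tn5 to insert adapters into accessible DNA, and a peak is an interval with more insertions than a reference, here purified genomic DNA. Every strain carried, in a wild-type background, a construct in which an enhancer of a patterning gene drove the nuclear envelope protein UNC84 with a FLAG tag. The constructs were hb_anterior_Hs34 for D1 (hunchback anterior domain), eve_stripe2_DSCP for D2 and eve_stripe1_DSCP for D3 (even-skipped stripes 2 and 1), D_central_Hs43 for D4 (Dichaete central domain), Kr_central_Hs43 for D5 (Kruppel central domain), eve_stripe5_DSCP for D6 (even-skipped stripe 5) and gt_posterior_Hs43 for D7 (giant posterior domain). Embryos of stage 5 were collected for 20 min, aged for 150 min and frozen 190 min after collection began. Tagged nuclei were pulled down with an anti-FLAG antibody, with 2 libraries for each of the 7 domains, labelled as independent strains except that both D3 libraries carried the label of line A. The 8 whole-embryo libraries were made without the pull-down, 2 for each of D1, D4, D5 and D7. D2, D3 and D6, the 3 constructs with DSCP in their name, had no whole-embryo library of their own strains.

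At the blastoderm stage, maternal gradients and gap proteins such as Hunchback, Kruppel and Giant divide the embryo into bands. They act on enhancers that are read in some bands and silenced in others, and open chromatin at an enhancer can differ between bands. A region that is open in part of the embryo can be detected in all nuclei together and missed in nuclei of a band where it is closed. A weakly accessible region can also be detected in one library and missed in another with no difference between the nuclei. A peak list records detection, so a missing peak is not a measured level of 0.

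Read depth was unknown, and the length of a list was the available sign of how much was detected in it. Tagged lists held 16830 to 22169 peaks and whole-embryo lists 19612 to 21064. The libraries' names were written in 3 styles, a possible batch. An ATAC prefix and no lettered peaks marked both kinds of replicate 1 library from the constructs D1, D4, D5 and D7. Replicate 2 of D2, D3 and D6 had REP2 in the name, and the other lists had a plain style. With every list shortened to the shortest, 16830 peaks, the number of members was 295 when peaks were kept by -log10 q and 210 when kept by width. In D2, D3 and D6, construct and the lack of own whole-embryo lists cannot be told apart. The REP2 style occurred in these domains alone, while the plain style included 1 tagged list of every domain.

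Most members were missing from few domains. Of the 476, 287 (60.3%) were lacking, meaning without a peak in both lists, in exactly 2 domains, 127 (26.7%) in 3, 48 (10.1%) in 4, 12 in 5 and 2 in 6. A further 707 regions found in all 8 whole-embryo lists were lacking in exactly 1 domain, so 1183 (8.49%) were lacking in at least 1. A member was found in 1 to 10 of the 14 tagged lists, with a median of 7.

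D6 lacked the most members, 328 (68.9%), followed by D3 with 271 (56.9%) and D7 with 198 (41.6%). D2 lacked 140, D4 112, D5 88 and D1 82 (17.2%). Over all 13926 regions the same domains lacked 4.39% (D6), 3.3% (D3), 2.3% (D7), 1.47% (D2), 0.898% (D4), 0.862% (D5) and 0.61% (D1). The order was thus that of the domains' losses over all regions. With lists of equal length D6 still lacked the most regions by -log10 q (307, and D3 276), while by width D3 lacked the most (205, and D6 156). A setting chosen after seeing the data used the plain style alone, with 1 tagged list per domain and the whole-embryo lists of that style. There D6 lacked 1947 regions, D7 1198, D3 893 and D1 703, while D4 lacked 612, D2 520 and D5 357. Each domain's count in the rule rests on both of its lists. With 1 list left it rose to as much as 496 regions in D1, 1110 in D2 and 1497 in D3, and for D4 to D7 to 447, 282, 1376 and 867, the highest then being D3. The share of a domain's losses that were shared with another domain ran opposite to the number lost, except for the order of D4 and D5. Of the 85 regions lacking in D1, 82 (96.5%) were members, and of the 125 lacking in D4 112 (89.6%), against 53.6% of the 612 in D6 and 59.0% of the 459 in D3. It was 73.3% of the 120 in D5, 68.3% of the 205 in D2 and 61.9% of the 320 in D7.

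Single lists differed within a domain as well. D1 replicate 1 lacked 114 members and replicate 2 lacked 189, D2 156 and 302, D3 284 and 355, D4 135 and 206, D5 136 and 138, D6 365 and 394, and D7 219 and 288. Replicate 2 lacked more members in all 7 domains. Over all 13926 regions the order was the opposite in D5, with 282 lacking in replicate 1 and 261 in replicate 2, and in D6, with 1376 and 1179. The 4 lists with an ATAC prefix were replicate 1 lists and held 18529 to 22169 peaks. The part of list length and naming style in these counts was not tested.

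**Figure D1:**
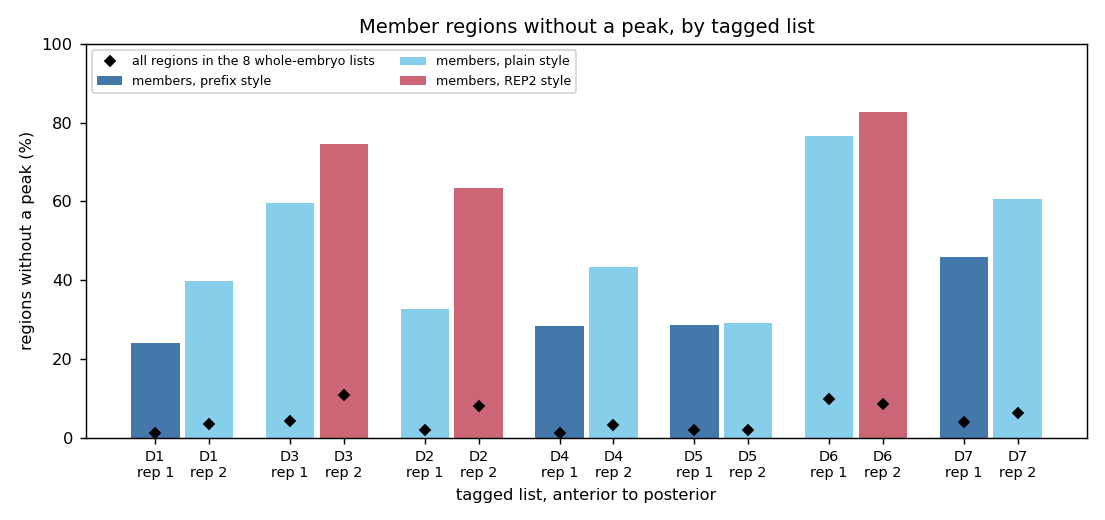
Percentage of the 476 members without a peak in each tagged list (bars, coloured by the naming style of the library) and of all 13926 regions found in the 8 whole-embryo lists (black diamonds), with domains in order from anterior to posterior. Both lists of D6 lacked over 70% of the members, and bars and diamonds were both high in D6 and in D3 replicate 2.

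The combinations of lacking domains were many and uneven. Of 120 possible combinations of at least 2 of 7 domains 59 occurred, and 18 of them held 1 member. The most frequent was D3 with D6, 89 members (18.7%), and the next was D6 with D7, 55 members (11.6%). Then came D2 with D3 (25), D3 with D6 and D7 (23), and D1 with D2 and D3 (20). These 5 combinations held 212 members. The D3 with D6 count fell to 43 and 17 with lists of equal length by -log10 q and by width, and without 1 library it ran from 35 (without D2 replicate 1) to 209 (without D3 replicate 1).

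Most members were lacking in bands that do not form an unbroken stretch, though unbroken stretches held more members than their share of combinations. The order used along the axis was D1, then D3, then D2, and then D4 to D7. It takes no account of any overlap between the tagged domains. On this order 161 members (33.8%) were lacking in an unbroken stretch of bands, to which 21 of the 120 combinations (17.5%) belong. Among the 287 members lacking in exactly 2 domains it was 116 (40.4%), to which 6 of the 21 possible pairs belong. Of these, 55 were lacking in D6 and D7. Such counts of combinations give no weight to the unequal losses of the domains. Members lacking in anterior domains only (D1, D2, D3) numbered 63 (13.2%, 4 combinations possible), and those lacking in D4 to D7 only numbered 151 (31.7%, 11 possible). The remaining 262 (55.0%) were lacking on both sides. Without D2 replicate 1, D1 replicate 1 or D3 replicate 1 the anterior-only members were 152, 114 and 95. The DSCP constructs D2, D3 and D6, which are not neighbours as a set, alone accounted for 151 members (31.7%, 4 combinations possible), and the other constructs alone for 49 (10.3%, 11 possible).

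Pairs of domains showed the overlap in each direction. D1 and D3 were both lacking at 69 members, 84.1% of the members that D1 lacked and 25.5% of those that D3 lacked. D1 and D4 shared 5 and D1 and D5 shared 6, which was 6.10% and 7.32% of those lacking in D1. D4 and D7 shared 73, 65.2% of the D4 members and 36.9% of the D7 members. The numerically largest overlap, 185 between D3 and D6, was 68.3% of the D3 and 56.4% of the D6 members. D6 and D7 shared 136, 41.5% and 68.7%.

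Few members gave a clear contrast, with both lists of every other domain holding a peak. That was so for 71 of 476 (14.9%). The share was 14 of 20 (70%) for D1 with D2 and D3, and 6 of 12 (50%) for D4 with D5, D6 and D7, the combinations that part the axis between D2 and D4. Among combinations that do not, it was 4 of 10 (40%) for D5 with D6 and likewise for D1 with D2, D3 and D6. It was 11 of 55 (20%) for D6 with D7, 7 of 89 (7.87%) for D3 with D6, and 0 of 17 for D4 with D5 and D7. For most D3 with D6 members, then, at least 1 other tagged list also had no peak. The more domains a combination holds, the fewer other lists must have a peak, so the shares of different combinations are not directly comparable.

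**Figure D2:**
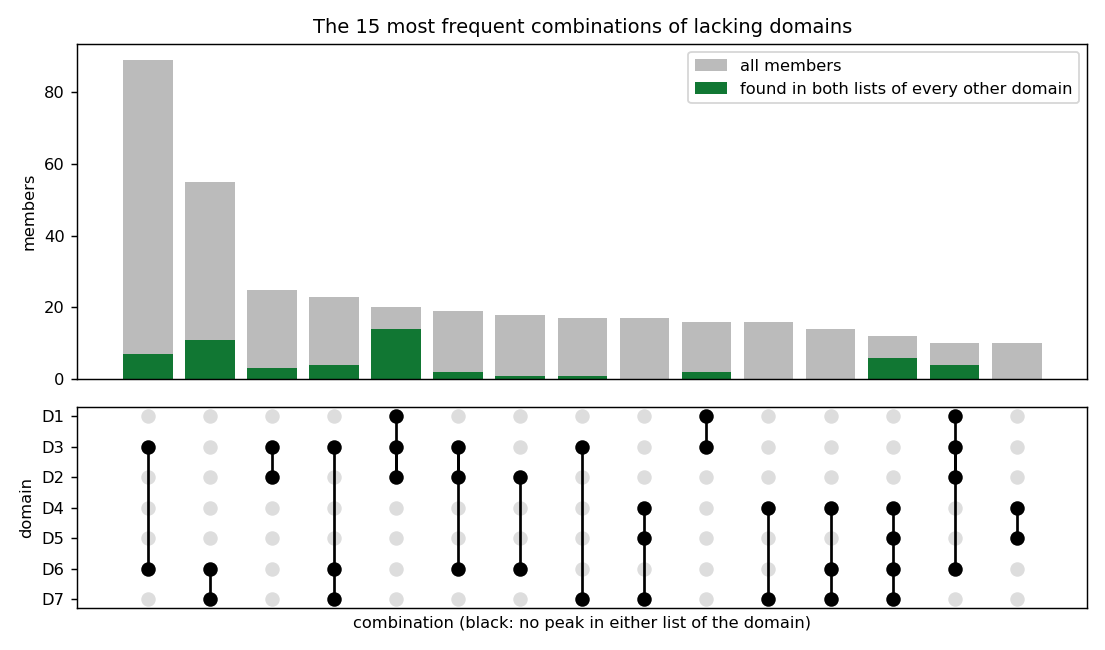
The 15 most frequent combinations of lacking domains, with the number of members of each (grey bars) and of those found in both lists of every other domain (green bars). Black dots joined by a line mark the lacking domains, with bands from anterior (top) to posterior. The D3 with D6 bar is the highest at 89 with 7 in green, and D1 with D2 and D3 has 14 of 20 in green.

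Members were weak peaks in the whole embryo. The values are the authors' fold enrichment over genomic DNA at a peak's summit, taken as the median over the 8 whole-embryo lists. Where a list held several peaks in a region, the highest fold was used. Members had a median fold of 2.11, and the middle 80% lay between 1.65 and 2.71. The 707 regions lacking in 1 domain had a median of 2.23, the 12743 lacking in none 4.11, and all 13926 regions 3.80. By number of lacking domains, the median fold of members lacking in up to 5 was highest at 2.15 for 3 domains and lowest at 2.01 for 5 (12 members), with those for 2 and 4 domains between them. The 2 members lacking in 6 domains had 1.98 and 2.41.

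The same held in each library. The members' median fold was 2.15 and 2.08 in the D1 whole-embryo replicates, 2.11 and 2.16 in those of D4, 2.16 and 2.16 in those of D5, and 2.19 and 2.00 in those of D7. Over all 13926 regions the 8 medians ran from 3.27 to 4.06, so the ranges did not overlap. The median of the authors' -log10 q was 19.3 for members and 93.2 for all. As weak peaks are the ones most easily missed, the rule itself favours low values.

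Width followed the same order. The median width of merged members was 401.5 bp, that of regions lacking in 1 domain 444 bp and that of regions lacking in none 788 bp. They ranged from 220 to 4258 bp, and 19 (3.99%) were wider than 1000 bp, against 33.9% of all 13926. A single peak in every whole-embryo list was seen at 436 members (91.6%), against 73.4% of all regions. Merged width can grow with the number of lists that hold a peak. The span of a region's peaks within a whole-embryo list also differed, with a median of 279.5 bp for members and 576.5 bp for all. That span runs from the first peak to the last, so regions with several peaks in a list raise it.

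The share of regions that were members fell with fold. It was 17.6% of the 432 regions under a fold of 1.75, 13.6% from 1.75 to 2, 9.86% from 2 to 2.5 and 4.40% from 2.5 to 3. From 3 to 4 it was 0.922%, and at 4 or more 1 of 6586 regions (0.0152%). Weak peaks were mostly no members all the same, since over 80% of the regions in the lowest class were found in at least 1 list of every domain or of all but 1.

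**Figure D3:**
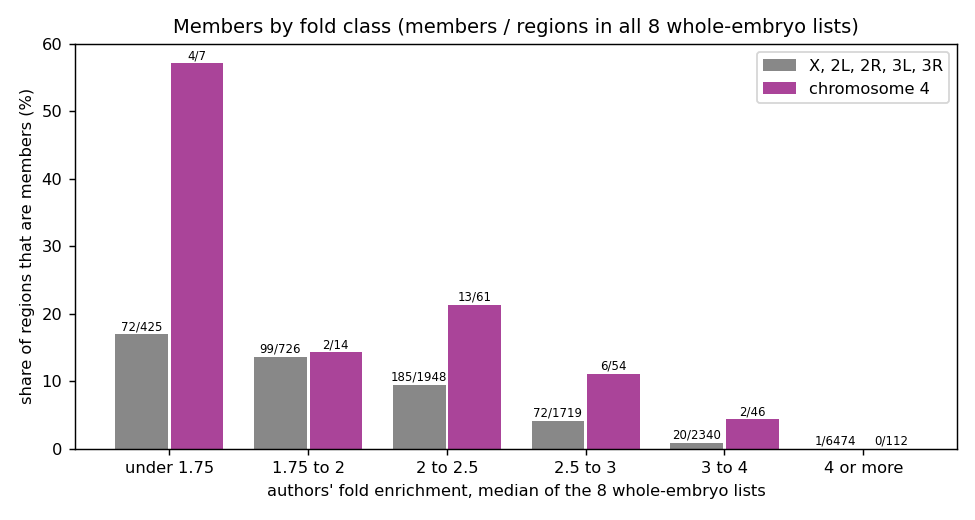
Share of members (%) among regions detected in each of the 8 whole-embryo lists, by class of the median whole-embryo fold, for chromosome 4 and for X, 2L, 2R, 3L and 3R together. The fractions above the bars are members over regions. The share falls from left to right on the long arms, and chromosome 4 is higher in every class but the last, with few regions in its lowest classes.

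The strongest member was 2L 21793952–21794230 (build dm3, as all positions here), 279 bp wide and lacking in D2 and D3. Its whole-embryo fold was 6.95 and 13.9 in the D1 replicates, 5.40 and 7.59 in D4, 4.54 and 7.68 in D5, and 6.71 and 7.51 in D7. Among tagged lists it was found in D1 replicate 2 (4.72), D4 replicate 2 (1.89), D5 replicate 2 (6.58), D6 replicate 1 (6.40) and D7 replicate 1 (2.50), so never in both lists of a domain. The tagged and whole-embryo values overlapped. The next, 3L 6761433–6761654, lacking in D2, D3 and D4, was found in 4 of the same tagged lists, D1 replicate 2 (3.05), D5 replicate 2 (3.22), D6 replicate 1 (2.39) and D7 replicate 1 (2.46). Its whole-embryo fold had a lowest value of 2.46, a median of 3.77 and a highest of 9.91. Both strongest members were thus found in 1 replicate of a band at most.

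The other 8 of the 10 strongest members had medians from 3.19 to 3.56, and 6 of these 8 lay on X. X 21153946–21154227 was lacking in D6 and D7 and found in both lists of the 5 other domains, at 2.46 to 3.50. Its whole-embryo fold was 2.77 to 3.89 with a median of 3.56, and the ranges overlapped. X 20360683–20360976, lacking in D2 and D3, was likewise found in both lists of all other domains, at a lowest of 2.09, a median of 2.82 and a highest of 3.28, against 2.94, 3.39 and 3.75 in whole embryos. X 20533896–20534418 was lacking in D1, D2 and D5. Its tagged values were uneven, 5.72 and 5.50 in the D7 replicates against 1.94 to 2.41 in the 4 other tagged lists with a peak. Whole embryos lay between, at 2.68 to 3.84, with 3.43 and 2.95 in the D7 strains, so both tagged D7 values were above all 8 whole-embryo values.

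The members lacking in most domains showed little more than absence. 2L 19178301–19178520, lacking in 6 domains, had a peak in 1 tagged list, D6 replicate 1 (1.87), with 1.98 to 4.12 in whole embryos. 2L 16523210–16523467, also lacking in 6, was found in both D5 lists (1.78 and 2.17), and its whole-embryo values of 1.80 to 2.31 covered nearly the same range. X 2328392–2328828 was lacking in 5 and found in both D1 lists (2.48 and 1.85) and D5 replicate 2 (1.56). 2L 1611032–1611276 and 3L 24074223–24074578, both lacking in 5, had a peak in 1 D4 and 1 D5 list each.

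Members with the same anterior pattern included 2L 4312240–4312782, the strongest of those lacking in D1, D2 and D3. It had a peak in both lists of every other domain, with D4 values of 3.12 and 2.46, D5 values of 2.13 and 2.62, D6 values of 2.90 and 3.72, and D7 values of 5.01 and 4.10. In whole embryos it had 2.35 to 3.22 with a median of 2.80. Both D7 values were above all 8 whole-embryo values, and those of D4 and D5 overlapped them. The next region in the 8 whole-embryo lists, 19424 bp away at 2L 4332207–4332597, was a member with the opposite pattern, lacking in D6 and D7 and found in both lists of D1, D2 and D3. Its fold was 2.98 and 1.93 in D1, 2.74 and 2.76 in D2 and 2.40 and 2.61 in D3, beside 1.98 to 2.66 in whole embryos.

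Where a region is closed in some bands, the fold in the remaining bands may be compared with that in whole embryos of the same strain, which was possible for D1, D4, D5 and D7. The values are the median over members of the log2 ratio of tagged to whole-embryo fold, in replicates 1 and 2. Members lacking in anterior domains only gave 0.05 and -0.03 in D4, 0.11 and 0.03 in D5, and 0.12 and 0.20 in D7. Regions lacking in no domain gave 0.00 and -0.09, 0.01 and -0.09, and -0.12 and -0.07. Members lacking in D4 to D7 only gave 0.16 and 0.12 in D1, against 0.04 and -0.15 for regions lacking in none. The median of these one-sided members was above that of regions lacking in none in all 8 lists compared. By the rule, a one-sided member has a peak in at least 1 list of each domain compared. Regions with low tagged values there could thus be left out by the choice itself, and the effect was not tested. Members without a peak in a list were left out of its median, and the effect of this was not tested. D7 replicate 2 held 52 of the 63 anterior-only members, and the other D4, D5 and D7 lists held 59 to 62. Of the 151 lacking in D4 to D7 only, the D1 lists held 149 and 131. Regions lacking in none with a whole-embryo fold under 2.5 are closer in strength. They were taken where both tagged lists of the domain had a peak, a stricter condition than for the one-sided members. For them the same medians were 0.05 and -0.04 in D4, 0.03 and -0.09 in D5, -0.06 and -0.02 in D7 and 0.11 and -0.02 in D1. In D4 the difference was then close to 0. All members found in both tagged lists of a domain, whatever their combination, gave 0.07 and 0.00 in D1, -0.01 and -0.13 in D4, -0.02 and -0.06 in D5, and 0.09 and 0.03 in D7. They were below the regions of similar strength in D1 replicate 1, both D4 lists and D5 replicate 1, and above them in the other 4.

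Members were spread over all arms. By arm the share of members was 3.39% on X (86 of 2538 regions), 3.73% on 2L, 2.60% on 2R, 3.56% on 3L and 3.24% on 3R (109 of 3360). Chromosome 4, a small and largely heterochromatic chromosome, had 27 members among 294 regions (9.18%), against 449 of 13632 (3.29%) on the other arms together. Its regions were also weaker, with a median whole-embryo fold of 3.11 against 3.82. Within fold classes under 4 the share was higher on chromosome 4, for example 13 of 61 against 9.50% from 2 to 2.5 and 6 of 54 against 4.19% from 2.5 to 3. At a fold of 4 or more it held 0 members among 112 regions, against 1 of 6474. With lists of equal length by width the shares over all classes were 3.74% and 1.79%.

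On chromosome 4, D6 lacked 25 of the 27 members and D3 17, D2 lacked 9, D4 7, D7 5, D1 4 and D5 3. Over all 294 regions of chromosome 4, D6 lacked 15.3% and D3 9.18%, against 4.16% and 3.17% on the other arms. The share was also higher on chromosome 4 in D2 (3.06% against 1.44%), D4 (2.38% against 0.866%), D1 (1.36% against 0.594%) and D5 (1.02% against 0.858%). D7 alone went the other way, with 1.70% there and 2.31% elsewhere. By list, D7 replicate 1 lacked 5 of the 294 and replicate 2 lacked 46, D2 13 and 54, D3 31 and 75, and D6 58 and 78. The 4 lists with an ATAC prefix lacked 5 to 8 of them. The part of naming style in this excess was not tested.

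Closeness to the centromere went with more members on 4 of 5 long arms. Within 2 Mb of the centromere end of an arm, 53 of 898 regions (5.90%) were members, against 396 of 12734 (3.11%) farther out. On 2L the shares were 9.45% and 3.20%, on X 9.02% and 3.10%, on 3L 7.32% and 3.44%, and on 2R 6.29% and 2.39%. On 3R the order was the opposite, 2.29% and 3.36%. The median fold of the near regions was 3.56 against 3.83.

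The median gap from one member to the next was 160487 bp. Another member lay within 10 kb of 65 members (13.7%), against 11.9% of the regions that were no members, and within 2 kb of 4.20% against 2.38%. Directly neighbouring members formed 23 runs, all of length 2, with 46 members (9.66%). In 21 of the runs (91.3%) both had a lacking domain in common, and in 4 (17.4%) the combinations were identical. Over all 113050 pairs of members these shares were 79.4% and 6.57%.

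The identical runs included 3L 816608–816927 and 3L 826214–826786, 9286 bp apart and both lacking in D3 and D6. The former had a median whole-embryo fold of 3.54 and was found in 9 tagged lists at 2.38 to 3.65. The latter had a median of 1.75 and was found in 9 tagged lists at 1.37 to 1.65. On chromosome 4, 950423–950681 (lacking in D1 and D3) and 950863–951480 (lacking in D3 and D6) lay 181 bp apart. Both were found in both D4 and both D5 lists.

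Of the 1153 windows of 100 kb that held a region of all 8 whole-embryo lists, 360 held a member, 91 at least 2 and 3 at least 4. The window with most was 3R 12500001–12600000, with 7 members among 35 regions. All 7 were lacking in D1 and in D3, 4 of them also in D2, and all 7 were found in both lists of D4, D5, D6 and D7. As absence from at least 2 domains made these regions members, the absence in D1 and D3 is in part the rule restated. Over all 476 members, 69 were lacking in both D1 and D3. Of all members 16 were lacking in D1 and D3 alone, and 20 in D1, D2 and D3 alone. Of the 28 other regions of the window, which by the rule lack at most 1 domain, 27 and 25 were found in the D1 lists, 28 and 27 in those of D2, and 27 and 17 in those of D3.

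Within that window, 3R 12530820–12531409 (lacking in D1 and D3) had a fold of 1.79 and 1.70 in D2, 3.07 and 3.15 in D4, and 3.03 and 3.94 in D5, while the D6 values were 2.25 and 2.77 and the D7 values 3.16 and 2.23. In whole embryos it had 2.04 to 2.91 with a median of 2.39. Both D2 values were below all 8 whole-embryo values, and both D4 and both D5 values were above them. 3R 12572495–12573101 was the other member found in both D2 lists (2.24 and 1.90), with 2.68 to 2.92 in D4 and D5, 1.83 and 3.18 in D6 and 2.71 and 2.99 in D7. Whole embryos had 2.03 to 3.07, and the ranges overlapped.

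3R 12588153–12588529, lacking in D1, D2 and D3, had D4 values of 3.03 and 3.89, D5 values of 2.45 and 2.64, D6 values of 2.46 and 6.45, and D7 values of 4.16 and 3.63. Its whole-embryo values were 1.83 and 2.03 in D1, 1.96 and 2.30 in D4, 1.81 and 2.55 in D5, and 2.47 and 2.46 in D7. Both D4 and both D7 values were above all 8 whole-embryo values, and the D6 replicates were far apart. 3R 12577330–12578382, with the same lacking domains, had 3.58 and 2.74 in D7 and 1.95 to 3.07 in D4, D5 and D6, beside 1.87 to 2.29 in whole embryos. The remaining 3 members were 3R 12521235–12521629, 3R 12534424–12535598 and 3R 12548495–12549133, with median whole-embryo folds of 2.65, 2.22 and 1.97.

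The next window was 800001–900000 of chromosome 4, with 5 members among 36 regions, all lacking in D6 and found in D1 replicate 1. No other domain was lacking at more than 3 of them. The third, 3R 9200001–9300000, held 4 members among 16 regions, all lacking in D6 and D7 and found in both D1 lists. At 3R 9232310–9232814 in that window the fold was 3.07 and 2.66 in D1 and 1.58 and 1.70 in D3, with no peak in any other tagged list, and 1.55 to 2.23 in whole embryos. Both D1 values were above all 8 whole-embryo values.

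**Figure D4:**
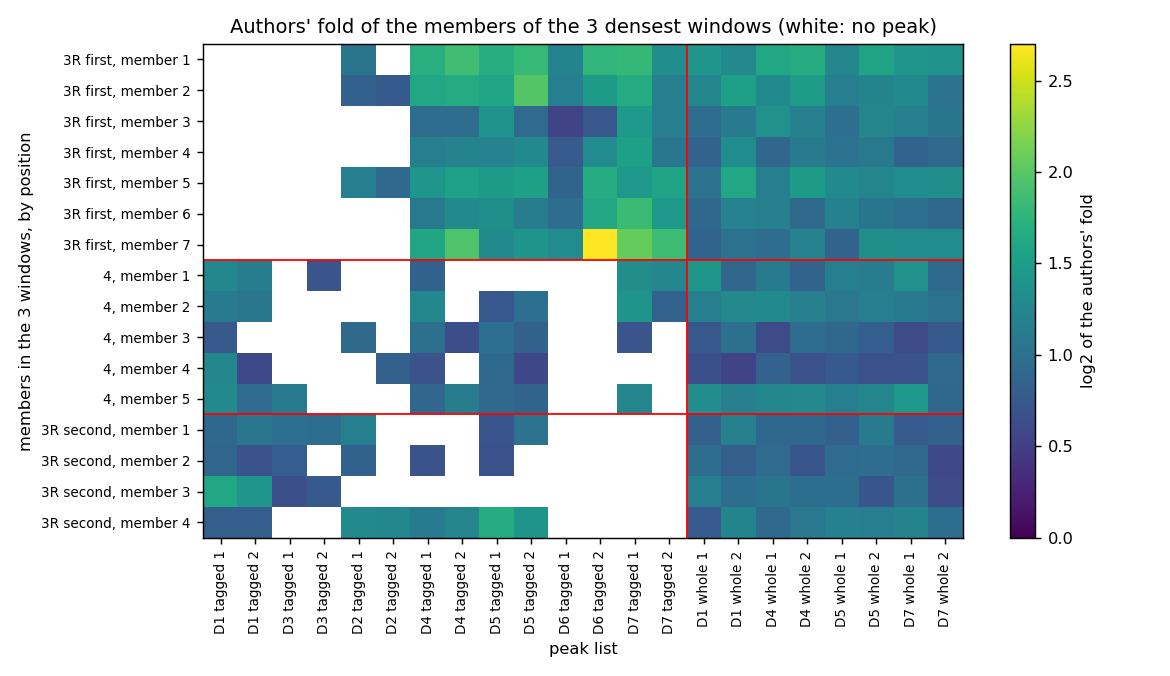
Authors' fold (log2, colour) of the 16 members in the 3 windows with most members, in 14 tagged lists from anterior to posterior and 8 whole-embryo lists (right of the red line); white marks no peak. The 7 members of the first 3R window are white in D1 and D3 and coloured in all 8 lists of D4 to D7, while the members on chromosome 4 and in the second 3R window are white in D6 and found in D1 replicate 1.

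A lacking list was rarely empty around a member. In the lists of lacking domains the next peak lay at a median of 1343 bp from the member, within 500 bp in 25.7% and within 5000 bp in 85.8% of 2438 pairs of member and list. In the whole-embryo lists the next other peak lay at a median of 947.5 bp, within 500 bp in 34.4% and within 5000 bp in 90.3% of 3808 pairs.

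Whether both lists of a domain lacked the same regions more than lists of different domains was tested over the 13926 regions, which were chosen with no tagged list. The overlap of lacking regions (shared as a percentage of those lacking in either list, the Jaccard index) was 14.5% in D1, 17.6% in D2, 28.5% in D3 and 25.1% in D4, and for D5, D6 and D7 it was 28.4%, 31.5% and 29.2%. The mean was 25.0% ± 6.44 (SD, n = 7 pairs), against 14.2% ± 7.56 (SD, n = 84 pairs) for lists of different domains. In an exact permutation test over all 135135 re-pairings of the 14 lists, two-sided, p was 0.000185 (0.000198 after Benjamini-Hochberg adjustment over 2 tests). Overlap within a domain was thus higher, and most lacking regions were still lacking in 1 list alone.

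The choice was then made with the replicate 1 lists and read in the replicate 2 lists. Replicate 1 chose 844 regions that were lacking in at least 2 of its 7 lists. A region chosen as lacking in a domain was also lacking in that domain's replicate 2 list in 52.5% of cases for D1, 81.4% for D2, 82.9% for D3, 73.9% for D4, 44.7% for D5, 60.4% for D6 and 66.5% for D7. The mean was 66.0% ± 14.4 (SD, n = 7 domains), against 44.4% ± 5.40 in the replicate 2 lists of the other domains. The exact permutation test over all matchings of replicate 2 lists to domains, two-sided, gave p = 0.000198, the smallest it can give.

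The share was higher in the own domain in 6 of 7 domains. In D5 it was 44.7% against 45.8%. Lists of other domains carried over much as well. Regions chosen as lacking in D1 were lacking in D3 replicate 2 in 88.0% of cases and in D2 replicate 2 in 80.4%, more than in D1 replicate 2, and in D5 replicate 2 in 8.23%. Regions chosen as lacking in D4 were lacking in D6 replicate 2 in 87.6%. Both p-values measure the spread between single libraries, and nothing shows the D3 pair to come from separate strains.

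**Figure D5:**
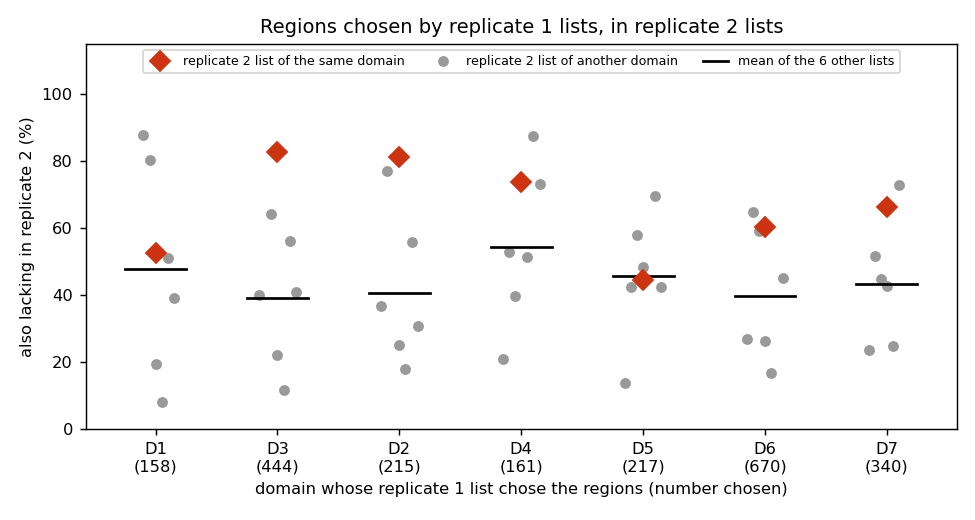
For each domain, the percentage of regions chosen as lacking by its replicate 1 list (their number in brackets) that were also lacking in the replicate 2 list of the same domain (red diamonds) and of each other domain (grey dots), with the mean of those 6 (black lines). The diamond is above the line in 6 of 7 domains, and in D1, D4, D5, D6 and D7 at least 1 other list lies above the diamond.

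Whole-embryo lists lacked far fewer regions when read the same way. Against regions found in all 6 whole-embryo lists of the other constructs, both whole-embryo lists of a construct lacked 26 regions for D1, 19 for D4, 28 for D5 and 25 for D7. Both tagged lists lacked 122, 158, 158 and 432 of the same regions. The reverse of the rule, a peak in all 14 tagged lists and in neither whole-embryo list of at least 2 of the 4 constructs, held for 0 of 10927 regions, and for at least 1 construct it held for 5. It asks for a peak in 14 lists and has 4 constructs, where the rule asks for 8 lists and has 7 domains. The 2 counts are therefore not matched. With the domains of the same 4 constructs alone, 118 regions were lacking in at least 2. All counts of members share the same 8 whole-embryo lists as their reference.

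Just outside the rule lay the 707 regions lacking in 1 domain, whose strongest was chromosome 4 1313729–1314148 with a median whole-embryo fold of 5.83, lacking in D3. Of these 707, 574 were also without a peak in 1 list of another domain. Another 510 regions were lacking in at least 2 domains but found in 7 of 8 whole-embryo lists, with a median fold of 1.93. The strongest of them, 3L 17230718–17230993, had a median of 3.02 and was lacking in D6 and D7.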

How the data were processed

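The authors deposited 1 peak list per library for 14 tagged and 8 whole-embryo ATAC-seq libraries. Per the submitters' processing notes, the tools were Bowtie2 2.2.9, SAMtools 1.3.1 and MACS2 2.1.1.2 with build dm3. Genomic DNA was the reference per the series design, and that library was not analysed here. The authors' score of a peak equals 10 times its -log10 q to within 1, in 100% of peaks. The deposited lists also give a fold enrichment per peak, and no -log10 q was below 2. The authors' scores and folds served only for ranking, filtering and description. A read shift for the transposase is not given in the sources used here, and as depth was unknown no interval could be based on counts. In 14 lists peaks with several summits carry letters, and their fold may be that of a late summit.

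Peaks were merged and members found with Python 3.11.15 and numpy 2.4.6, with matplotlib 3.10.9 for plots. Centromere ends were taken as the last region on X, 2L and 3L and as position 1 on 2R and 3R. The rule was run on simulated data and found all planted regions, which holds by construction. Both tests were run on the same data. Losses there were drawn separately for each region and list. The simulation therefore cannot show how the tests behave where lists miss the same weak regions. Regions named were the 10 members with the highest median whole-embryo fold, the 5 lacking in most domains, the strongest of each of the 5 most frequent combinations, the 3 longest runs (ties by fold), the members of the 3 fullest windows and the 3 strongest regions on each side outside the rule. 3R 12577330–12578382, 3R 9232310–9232814 and others of a window were picked for description after their values were seen, as was the chromosome 4 comparison. The members and lists were chosen with earlier results of these data known. Tagged and whole-embryo lists of a strain were paired by the strain label. The annotation at hand is on a later build, so 0 regions were linked to genes.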

Additional observations from a re-analysis of the deposited data

Results flagged for a closer look

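The whole-embryo folds of the 37 named regions were searched for 1 library far from the other 7, with 40 measures tested, of which 3 stood out; chance gives about 1 in 20. In each case the library was D1 whole embryo replicate 2. At 2L 21793952–21794230 its fold was 13.9 and the others lay between 4.54 and 7.68. At 3L 6761433–6761654 it was 9.91 and the others lay between 2.46 and 4.40. At 3L 826214–826786 it was the lowest, 1.41, against 1.63 to 1.82. These regions are members by the presence of a peak and not by its fold.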

How the results depend on the processing

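The number of members, 476, depended on how peaks were counted. It was 295 with all lists shortened to 16830 peaks by -log10 q and 210 with the widest peaks kept, and 228 (47.9%) and 105 (22.1%) of the 476 overlapped a member of those settings. It was 942 in bins of 500 bp, 1202 and 806 with the whole-embryo replicate 1 or replicate 2 lists alone, and 1649 with lists of the plain style only, chosen after seeing the data. Requiring at least 1, 3 or 4 domains gave 1183, 189 and 62. A -log10 q of at least 5 gave 499, an overlap of 50% 556, and all sequences 499, with 23 members outside the arms. Leaving out 1 library, which loosens the rule, gave 489 to 696. Regions lacking in at least 1 domain (1183) became 756 and 594 with equal lengths, 2470 in bins, 2189 with whole-embryo replicate 1 lists, 2949 with the plain style, and 1198 to 1941 without 1 library, the highest without D3 replicate 1 and 1776 without D6 replicate 2.

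With equal lengths D6 lacked 307 regions and D3 276 by -log10 q, and D3 205 and D6 156 by width, in place of 612 (D6) and 459 (D3). Members lacking in D3 and D6 alone fell from 89 to 43 and 17, and those lacking in anterior domains only from 63 to 47 in both. These were in part other regions. Of the 63 anterior-only members, 33 (52.4%) by -log10 q and 22 (34.9%) by width overlapped a member of any combination. Of the 89, 46 and 18 did. Without D6 replicate 2 the D3 with D6 members were 171, without D7 replicate 1 51 and without D1 replicate 1 47. The first 3R window held 7 to 11 members in the alternatives run on it. Of its 7 members, 5 overlapped a member with equal lengths by -log10 q and 4 by width. Chromosome 4 against the other arms was 3.74% against 1.79% by width, 7.85% against 2.52% by -log10 q, and 9.15% to 13.9% on chromosome 4 without 1 library, the highest without D2 replicate 1. Of the 27 members on chromosome 4, 3 (11.1%) overlapped a member by width and 16 (59.3%) by -log10 q. Sharing a window, 43.5% of members at 100 kb, was 26.5% at 50 kb and 60.9% at 200 kb. In the 4 whole-embryo lists with no lettered peaks the median fold was 2.14.

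Both permutation tests stayed under 0.05 in all alternatives run. Without 1 library in turn the overlap was 23.9% to 27.2% (largest p = 0.00192, exact permutation) and the carry-over 63.8% to 70.3% (largest p = 0.00139, exact permutation). Leaving out a tagged library took its whole domain out of both tests, so its 2 replicates gave the same values. Carry-over was 35.7% when replicate 2 chose and 50.1% when the other naming styles chose, with D2 then below the other domains (22.4% against 32.6%). Libraries of different domains with the same number had a mean correlation of -0.0528, against -0.115 for different numbers, so numbers were not taken as pairs. With the replicate block the overlap of 25.0% had p = 0.000198 in the exact permutation test, and with naming style as a block 0.00139. Read depth, which sets what a list can detect, was unknown, so a lacking region was not detected and is not shown to be closed.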
